A study of Homo sapiens with 33 samples.

Results

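The genes examined were the 5 copper transport genes that have been linked to the handling of cisplatin, namely SLC31A1, SLC31A2, ATOX1, ATP7A and ATP7B. They were matched by symbol, and all 5 were found among the 29744 genes of the deposited tables. Messenger RNA was sequenced in 33 libraries, 3 replicates from each of 11 human cell lines of high-grade serous ovarian carcinoma. The lines formed 4 families, and the roles of the lines as sensitive or resistant come from the study's text because the labels name only the line. OVCAR3 and OVCAR4 are platinum-sensitive established lines, and repeated short pulses of cisplatin at rising dose gave 2 resistant derivatives of each, raised independently and named ResA and ResB. These 4 selected lines are cultured without cisplatin between experiments. The study's text in places calls resistant derivatives clones, and isolation from single cells was not described in the sources used here. PEA1 (sensitive) and PEA2 (resistant) were derived from the same patient, as were PEO1 (sensitive), PEO4 and PEO6 (both resistant), so these 3 resistant lines arose outside the laboratory. No library was labelled as treated at the time of sampling, and the comparisons are therefore of resting levels between each of the 7 resistant lines and the sensitive line of its family.

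Copper enters cells mainly through CTR1, the high-affinity importer encoded by SLC31A1, which has also been proposed as a route of entry for cisplatin. CTR2, encoded by the neighbouring paralog SLC31A2, sits largely on internal membranes and affects how much copper and cisplatin a cell retains. ATOX1 is the cytosolic chaperone that carries copper to a pair of P-type ATPases, ATP7A and ATP7B, which load copper onto enzymes in the secretory route and pump it out when it is in excess. Loss of ATP7A causes Menkes disease and loss of ATP7B causes Wilson disease, and raised levels of either pump have been linked to cisplatin efflux in ovarian carcinoma cells.

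In RefSeq GRCh38.p14, SLC31A1 lies on chromosome 9 from 113221544 to 113264492, close to SLC31A2 at 113151007 to 113164140 on the same chromosome. ATOX1 is on chromosome 5 from 151742822 to 151758631, ATP7A on chromosome X from 77910693 to 78050395, and ATP7B on chromosome 13 from 51932669 to 52012132. The promoter windows below run from 250 bases before to 50 bases after the RefSeq start of each gene and were found for 4 of the 5 members. They are shown because ATP7A and ATP7B had the largest called differences between resistant and sensitive lines, and because SLC31A1 and ATOX1 followed each other across lines. Of the 3 RefSeq windows of ATP7B, the one farthest upstream is printed. Capitals mark matches on either strand to GGGCGG, the core of the site for the SP1 family of transcription factors, or to TGCGCNC or TGCACNC, the core of the metal response element bound by MTF1. Neighbouring matches can overlap, and no window printed here matched TGCACNC.
SLC31A1, chr9:113221294-113221593, + strand: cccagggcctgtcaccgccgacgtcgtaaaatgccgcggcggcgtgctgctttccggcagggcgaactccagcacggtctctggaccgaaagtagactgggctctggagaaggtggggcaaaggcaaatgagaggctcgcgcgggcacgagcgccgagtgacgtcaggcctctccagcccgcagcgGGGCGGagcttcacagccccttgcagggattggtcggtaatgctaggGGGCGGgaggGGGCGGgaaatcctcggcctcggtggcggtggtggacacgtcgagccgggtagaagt
ATOX1, chr5:151758582-151758881, - strand: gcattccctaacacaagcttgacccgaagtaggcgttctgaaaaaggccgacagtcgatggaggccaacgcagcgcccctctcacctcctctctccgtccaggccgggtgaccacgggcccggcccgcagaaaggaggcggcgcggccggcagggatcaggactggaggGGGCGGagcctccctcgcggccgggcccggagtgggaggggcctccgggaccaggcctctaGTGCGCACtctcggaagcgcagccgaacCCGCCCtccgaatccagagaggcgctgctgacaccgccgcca
ATP7A, chrX:77910443-77910742, + strand: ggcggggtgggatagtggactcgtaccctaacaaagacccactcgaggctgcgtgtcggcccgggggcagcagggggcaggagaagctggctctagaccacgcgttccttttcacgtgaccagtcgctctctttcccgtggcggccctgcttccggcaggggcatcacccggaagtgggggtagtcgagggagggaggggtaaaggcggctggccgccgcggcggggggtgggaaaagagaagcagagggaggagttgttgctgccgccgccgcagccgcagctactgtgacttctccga
ATP7B, chr13:52012083-52012382, - strand: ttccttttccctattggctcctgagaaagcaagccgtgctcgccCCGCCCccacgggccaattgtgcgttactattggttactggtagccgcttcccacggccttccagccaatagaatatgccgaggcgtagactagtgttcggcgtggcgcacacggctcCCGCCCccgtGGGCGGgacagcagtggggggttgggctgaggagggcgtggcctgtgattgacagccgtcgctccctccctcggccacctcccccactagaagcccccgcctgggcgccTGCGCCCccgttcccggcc
GGGCGG matched 3 times in the SLC31A1 window, 2 times in that of ATOX1, 3 times in that of ATP7B and 0 times in that of ATP7A. It is held by 15786 of the 35116 RefSeq windows of the same length. TGCGCNC matched 2 times in the ATOX1 window, on both strands of the same stretch, and 1 time in the ATP7B window, against 7012 of the 35116 windows, and TGCACNC is held by 4238 of them. The ATP7A window thus held none of these letters although 66.7% of its bases were G or C, the same share as in ATP7B.

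Between 18058985 and 43394009 expected counts were assigned to genes per library (median 30611448). All 7 carcinoma and epithelial markers (PAX8, WT1, MUC16, EPCAM, KRT7, KRT8 and CDH1) had a mean of at least 1 TPM (a count scaled for gene length and library size) in 8 lines and 6 of 7 did in OVCAR4, OVCAR4 ResB and PEA1. The summed level of 8 leukocyte, fibroblast and endothelial markers was 2.03 to 22.7 TPM in 10 lines and 88.8 TPM in PEA1. COL1A1 alone was at 88.4 TPM in PEA1 and had at least 1 TPM in 9 of 11 lines. The highest line means of LUM and PECAM1 were 17.7 TPM (OVCAR4 ResA) and 6.76 TPM (OVCAR3 ResB). Those of PTPRC, CD14 and VWF were 3.3 TPM (PEA2), 3.02 TPM (PEO1) and 0.654 TPM (OVCAR4 ResB). CD3E and DCN were near 0 in every line. Libraries of a line differed in how strongly they counted long transcripts. This was expressed as a length slope, the slope of each gene's log2 deviation from its line mean on the log2 relative length of its transcripts, and it ran from -0.20 to 0.24. The mitochondrial rRNA share, that is the counts assigned to RNR1 and RNR2, ran from 1.12% to 14.8%. Nothing in the labels says that replicates came from separate cultures, so p-values measure the spread between these libraries, which may be technical.

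Within lines, the levels of the longer copper transport genes varied together with the length slope. ATP7A, ATP7B and SLC31A1 have long transcripts, 3.2, 2.21 and 1.82 times as long as the median gene, whereas those of SLC31A2 and ATOX1 are 0.635 and 0.13 times as long. Across the 33 libraries, the deviation of SLC31A1 from its line mean moved with that of ATP7A (Pearson r = 0.92) and of ATP7B (r = 0.81), and ATP7A moved with ATP7B (r = 0.82). The same deviations followed the length slope, with r = 0.90 for SLC31A1, 0.92 for ATP7A and 0.79 for ATP7B, and ran against the log2 mitochondrial rRNA share, with r = -0.85, -0.86 and -0.71. ATOX1 and SLC31A2 followed the length slope less closely, with r = -0.34 and -0.28. These points share library, depth and scaling, and the values are given as a description.

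**Figure D1:**
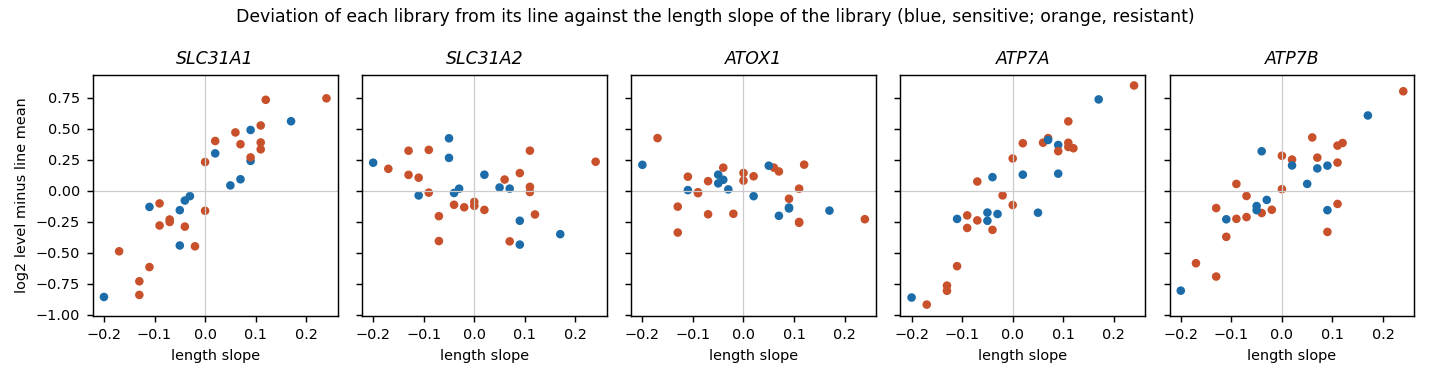
Log2 normalised count of each gene minus its line mean (y axis) against the length slope of the library (x axis, log2 units per log2 relative length) in the 33 libraries. SLC31A1, ATP7A and ATP7B rise along the x axis (r = 0.90, 0.92 and 0.79), and SLC31A2 and ATOX1 do not.

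Of the 35 combinations of member and resistant-sensitive pair, 8 were called (adjusted p under 0.05), 6 of them higher and 2 lower in the resistant line. ATP7A was called higher in 4 pairs, SLC31A1 and ATP7B were each called higher in 1 pair and lower in 1 pair, and SLC31A2 and ATOX1 had 0 calls each. At an unadjusted p under 0.05, SLC31A2 and ATOX1 each passed in 1 pair, and the edgeR quasi-likelihood test called neither in any pair. The test was the DESeq2 Wald test with the replicate block, adjusted over all genes by the Benjamini-Hochberg method, and each log2 fold change is given with its standard error. Over all genes, the share called was 44.9% in OVCAR3 ResA, 7.67% in OVCAR3 ResB, 11.9% in OVCAR4 ResA, 17.9% in OVCAR4 ResB, 47.0% in PEA2, 33.3% in PEO4 and 41.4% in PEO6, so the 22.9% of member combinations called lay within the background. The number depended on the model. Without the replicate block 4 combinations were called higher and 4 lower, and in a single fit of all 33 libraries 2 were called higher and 7 lower. Leaving out any replicate number reduced the count to 5.

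**Figure D2:**
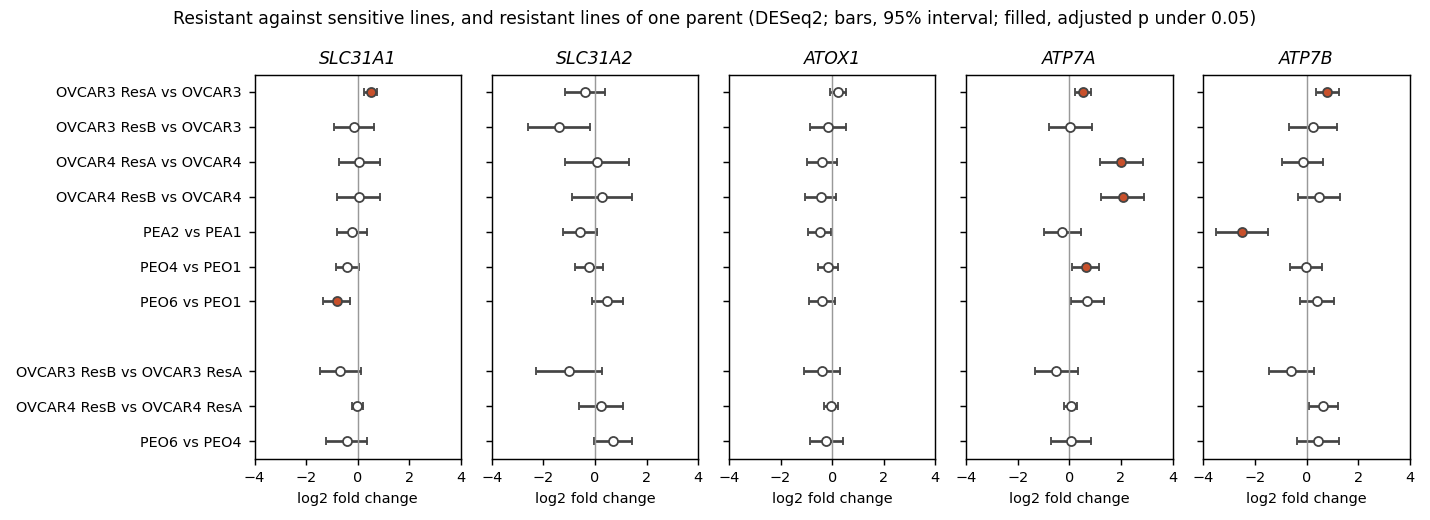
Log2 fold change of each gene (x axis) in the 7 resistant-sensitive pairs and the 3 comparisons between resistant lines of the same parent (y axis). Bars are 95% intervals and filled points had an adjusted p under 0.05; the largest positive values are those of ATP7A in OVCAR4 ResA (2.02) and OVCAR4 ResB (2.06) and the lowest is that of ATP7B in PEA2 (-2.50).

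SLC31A1, the importer, was expressed at 4.9 to 37.7 TPM over the 33 libraries, and its line means ran from 9.57 ± 4.04 TPM in OVCAR3 to 27.6 ± 14.7 TPM in OVCAR4 ResB (SD, n = 3), a 2.89-fold range. Below OVCAR4 ResB the order was OVCAR4 ResA, PEA1, OVCAR4, PEA2, PEO1, OVCAR3 ResA, PEO4, OVCAR3 ResB, PEO6 and OVCAR3. At each of the 10 steps of this order the libraries of neighbouring lines overlapped. On normalised counts the ends differed. OVCAR4 ResA had the highest mean (1752), above OVCAR4 ResB (1735), and PEO6 the lowest (735), below OVCAR3 ResB (762) and OVCAR3 (828). The 2 calls for SLC31A1 had opposite directions. In OVCAR3 ResA its TPM was 21.8, 11.8 and 11.1 in replicates 1 to 3, against 14.1, 6.42 and 8.15 in OVCAR3. The groups overlapped, but every same-numbered library was higher in OVCAR3 ResA (log2 fold change 0.50 ± 0.13, DESeq2 adjusted p = 0.000569). Same-numbered libraries of these lines deviated together, and the call was lost without the replicate block (adjusted p = 0.272), in the single fit of all libraries (adjusted p = 0.416) and without replicate 1 (adjusted p = 0.0719).

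In PEO6, the resistant line in which SLC31A1 fell, its TPM was 6.68, 6.49 and 16.4, against 17.9, 12.4 and 17.1 in PEO1. Replicate 3 of PEO6 reached the range of PEO1 and had a length slope of 0.12, and the other PEO6 libraries were below every PEO1 library. The log2 fold change was -0.82 ± 0.27 (DESeq2 adjusted p = 0.00801), and it was -0.41 ± 0.23 (adjusted p = 0.162) in PEO4, from the same PEO1 libraries. The PEO4 value was -0.08 without replicate 3 of both lines (adjusted p = 0.734). Across 12 alternatives the PEO6 value stayed between -1.18 and -0.64, and the call was lost in 7 of them, among them no replicate block (adjusted p = 0.0569) and leaving out replicate 1 (0.154) or 2 (0.19). With a length trend removed from each library, an alternative added after the data had been seen, it remained called at -0.68 (adjusted p = 0.0192).

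In the OVCAR4 family, the SLC31A1 result depended on replicate 1. OVCAR4 ResA had 12.2, 33.2 and 33.7 TPM and OVCAR4 ResB 10.7, 34.5 and 37.7 TPM, against 23, 13.2 and 13.6 TPM in OVCAR4. Replicate 1 was thus the lowest in both resistant lines and the highest in the sensitive line, and the length slopes of these 3 libraries were -0.13, -0.13 and 0.09. The fitted differences were 0.06 ± 0.40 and 0.04 ± 0.42, with 95% intervals from -0.72 to 0.85 and from -0.79 to 0.87. Without replicate 1 they became 0.56 (DESeq2 adjusted p = 0.0137) and 0.59 (adjusted p = 0.00323), and with the length trend removed -0.19 and -0.21, not called. The other SLC31A1 estimates were -0.16 ± 0.39 in OVCAR3 ResB and -0.23 ± 0.29 in PEA2. The part of the length slope in these differences was not tested beyond the length trend alternative.

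SLC31A2 was expressed at 0.659 to 9.37 TPM, from 12 to 316 counts per library. Its level differed between families. The 5 PEA and PEO lines had means of 4.12 to 8.17 TPM and the 6 OVCAR3 and OVCAR4 lines 0.959 to 2.27 TPM, with no overlap between the libraries of PEA2, the lowest of the first group, and OVCAR3, the highest of the second. PEO6 (8.17 ± 1.14 TPM, SD, n = 3) was followed by PEA1, PEO1, PEO4, PEA2, OVCAR3, OVCAR4 ResB, OVCAR3 ResA, OVCAR4 ResA, OVCAR4 and OVCAR3 ResB. Beside the step between PEA2 and OVCAR3, that between OVCAR4 ResA and OVCAR4 was without overlap in TPM, and the other 8 steps overlapped. On normalised counts the libraries of OVCAR4 ResA and OVCAR4 overlapped (log2 fold change 0.06 ± 0.64). In this pair the median of all genes was itself higher by 0.44 on the log2(TPM + 1) scale. SLC31A2 and its paralog did not follow each other over the 11 line means (r = -0.21).

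The largest SLC31A2 difference was in OVCAR3 ResB, whose libraries had 0.659, 0.803 and 1.42 TPM (12, 19 and 37 counts) against 1.84, 2.89 and 2.08 TPM in OVCAR3. All 3 resistant libraries were below all 3 sensitive libraries, and the log2 fold change of -1.40 ± 0.61 did not pass (DESeq2 adjusted p = 0.181). Without the replicate block it passed at -1.39 (adjusted p = 0.0442), as it did in the single fit of all libraries at -1.38 (adjusted p = 6.83e-05). In PEA2 its TPM was 4.81, 3.79 and 3.76 against 7.59, 6.58 and 5.87 in PEA1. These groups were also apart, at -0.58 ± 0.34 (adjusted p = 0.144), and 4 of 12 alternatives called the difference, among them no replicate block (-0.60, adjusted p = 0.0447). In PEO6 the TPM of 9.37, 7.1 and 8.05 lay above the 6.41, 5.01 and 6.35 of PEO1, at 0.47 ± 0.31 (adjusted p = 0.218). Estimates in the other 4 pairs ran from -0.38 to 0.28, and being called in none of the 7 pairs was the case for 13.4% of the 13924 genes with an adjusted p in all of them. SLC31A2 overlaps the gene FKBP15 on chromosome 9, and strand use in the counting was not given in the sources used here.

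ATOX1, the chaperone, was the most abundant member per unit of length at 57.7 to 234 TPM. Its line means ran from 69.2 ± 11.4 TPM in OVCAR3 ResB to 192 ± 72.3 TPM in OVCAR4 ResB (SD, n = 3). The upper 4 lines were OVCAR4 ResB, OVCAR4 ResA, PEA1 and OVCAR4, and the step from OVCAR4 (145 to 180 TPM) to PEA2 (105 to 118 TPM) was the only step of 10 without overlap. Below PEA2 came PEO1, OVCAR3 ResA, PEO4, PEO6, OVCAR3 and OVCAR3 ResB. This order of TPM was close to that of SLC31A1. On normalised counts the order differed, with ATOX1 highest in OVCAR4 (mean 1179), above PEA1 (922), OVCAR4 ResA (902) and OVCAR4 ResB (878). Over the 11 line means of log2 normalised counts, ATOX1 and SLC31A1 had r = 0.93, a description over lines that share family and library features.

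ATOX1 estimates were below 0 in 6 of 7 pairs, from -0.16 to -0.49, and none was called. The lowest was in PEA2, with 118, 118 and 105 TPM against 178, 163 and 176 TPM in PEA1. All 3 libraries of PEA2 were below those of PEA1 at -0.49 ± 0.24 (DESeq2 adjusted p = 0.0759), and 5 of 12 alternatives called it, including no replicate block (-0.50, adjusted p = 0.0165) and the length trend (-0.55, adjusted p = 0.0383). In PEO6 the TPM of 70.5, 64.1 and 101 overlapped the 93.6, 87.5 and 125 of PEO1, and the value moved from -0.39 ± 0.25 (adjusted p = 0.207) to -0.83 with the length trend removed (adjusted p = 0.00214). OVCAR3 ResA was the exception in sign, at 0.22 ± 0.15 (adjusted p = 0.254). For OVCAR4 ResA and ResB the estimates were -0.41 ± 0.30 and -0.45 ± 0.31. On normalised counts every library of both lines was below every OVCAR4 library, while their TPM overlapped. Of 12 alternatives only the single DESeq2 fit of all libraries called them lower (adjusted p = 0.027 and 0.00991). The estimates turned to 0.14 and 0.16 on the log2 TPM scale, on which the median of all genes was itself higher by 0.44 and 0.47, and to 0.19 and 0.27 with the length trend removed. Relative to that median ATOX1 was thus lower on both scales, and its direction changed only with the length trend removed.

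ATP7A, the Menkes pump, was expressed at 0.758 to 7.27 TPM, and it was the member with the most calls. Its level was lowest in OVCAR4, at 1.19, 1.03 and 0.758 TPM. OVCAR4 ResA had 3.12, 6.38 and 6.82 TPM and OVCAR4 ResB 3.08, 7.27 and 7.26 TPM. Every library of both resistant lines was above every OVCAR4 library, and replicate 1 was the lowest library of both. The log2 fold changes were 2.02 ± 0.43 (a 4.05-fold increase, DESeq2 adjusted p = 9.85e-05) and 2.06 ± 0.43 (4.18-fold, adjusted p = 4.28e-05). Both comparisons use the same OVCAR4 libraries. ResB differed from ResA by 0.05 ± 0.13, with a 95% interval from -0.21 to 0.31.

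The sizes of these increases varied less than their calls. Over 12 alternatives the value in OVCAR4 ResA stayed between 1.64 and 2.49 and that in OVCAR4 ResB between 1.67 and 2.55. The call in OVCAR4 ResA was lost in the edgeR quasi-likelihood test (2.01, adjusted p = 0.0692), in limma on log2(TPM + 1) (1.64, adjusted p = 0.102) and without replicate 2 (1.86, adjusted p = 0.0773) or replicate 3 (1.68, adjusted p = 0.196). In OVCAR4 ResB it held in edgeR and was lost without replicate 3 (1.73, adjusted p = 0.112) and in limma (1.72, adjusted p = 0.0809). With the length trend removed, the values fell to 1.64 and 1.67 and remained called. The OVCAR4 libraries themselves had mitochondrial rRNA shares of 5.18%, 14.8% and 12%, against 2.02% to 13.1% in the resistant lines, and the part of this share in the ATP7A values was not tested.

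In OVCAR3 ResA, ATP7A was measured at 6.84, 5.02 and 4.88 TPM, all above the 4.83, 3.34 and 3.18 TPM of OVCAR3, though normalised counts of the groups overlapped. The increase was 0.54 ± 0.16 (DESeq2 adjusted p = 0.00186). It was lost without the replicate block (0.57, adjusted p = 0.182) and without replicate 1 (0.45, adjusted p = 0.198). OVCAR3 ResB spanned 1.82 to 7.17 TPM, the highest in replicate 3, which had the highest length slope of all libraries (0.24), and its difference of 0.04 ± 0.42 was turned to -0.51 by leaving out replicate 3 of both lines. PEO4 had 2.97, 2.64 and 1.74 TPM against 2.04, 1.06 and 1.35 TPM in PEO1, overlapping groups with every same-numbered library higher, at 0.63 ± 0.26 (adjusted p = 0.0467). This call had the highest adjusted p of the 8 and was lost in 7 of 12 alternatives, including no replicate block (0.66, adjusted p = 0.0765) and leaving out replicate 1 (0.66, adjusted p = 0.338) or replicate 2 (0.38, adjusted p = 0.557). In PEO6 the 2.15, 2.67 and 3.31 TPM were all above those of PEO1, at 0.70 ± 0.32 (adjusted p = 0.0638), and 4 of 12 alternatives called the difference. PEA2 was the only pair with an estimate below 0, at -0.28 ± 0.37, with 1.58, 1.12 and 0.981 TPM against 1.81, 1.03 and 2.98 TPM.

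Set against all genes, the share called higher was 22.0% in OVCAR3 ResA, 4.10% in OVCAR3 ResB, 6.68% in OVCAR4 ResA, 9.09% in OVCAR4 ResB, 23.3% in PEA2, 16.6% in PEO4 and 21.2% in PEO6. Being called higher in at least 4 of the 7 pairs and lower in none was the case for 187 of 13924 genes, or 1.34%. This cutoff equals the result of ATP7A itself, so ATP7A was among them by construction. The share therefore does not measure how unusual ATP7A is. The ATP7A calls in OVCAR4 ResA and ResB share the OVCAR4 libraries, and that in PEO4 was lost in 7 of 12 alternatives. Over the 11 lines, the order of ATP7A from the highest was OVCAR4 ResB (5.87 ± 2.41 TPM), OVCAR3 ResA, OVCAR4 ResA, OVCAR3 ResB, OVCAR3, PEO6, PEO4, PEA1, PEO1, PEA2 and OVCAR4 (0.993 ± 0.22 TPM, SD, n = 3), and libraries overlapped at all 10 steps. On normalised counts OVCAR3 ResA had the highest mean (643), above OVCAR4 ResB (635) and OVCAR4 ResA (617).

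**Figure D3:**
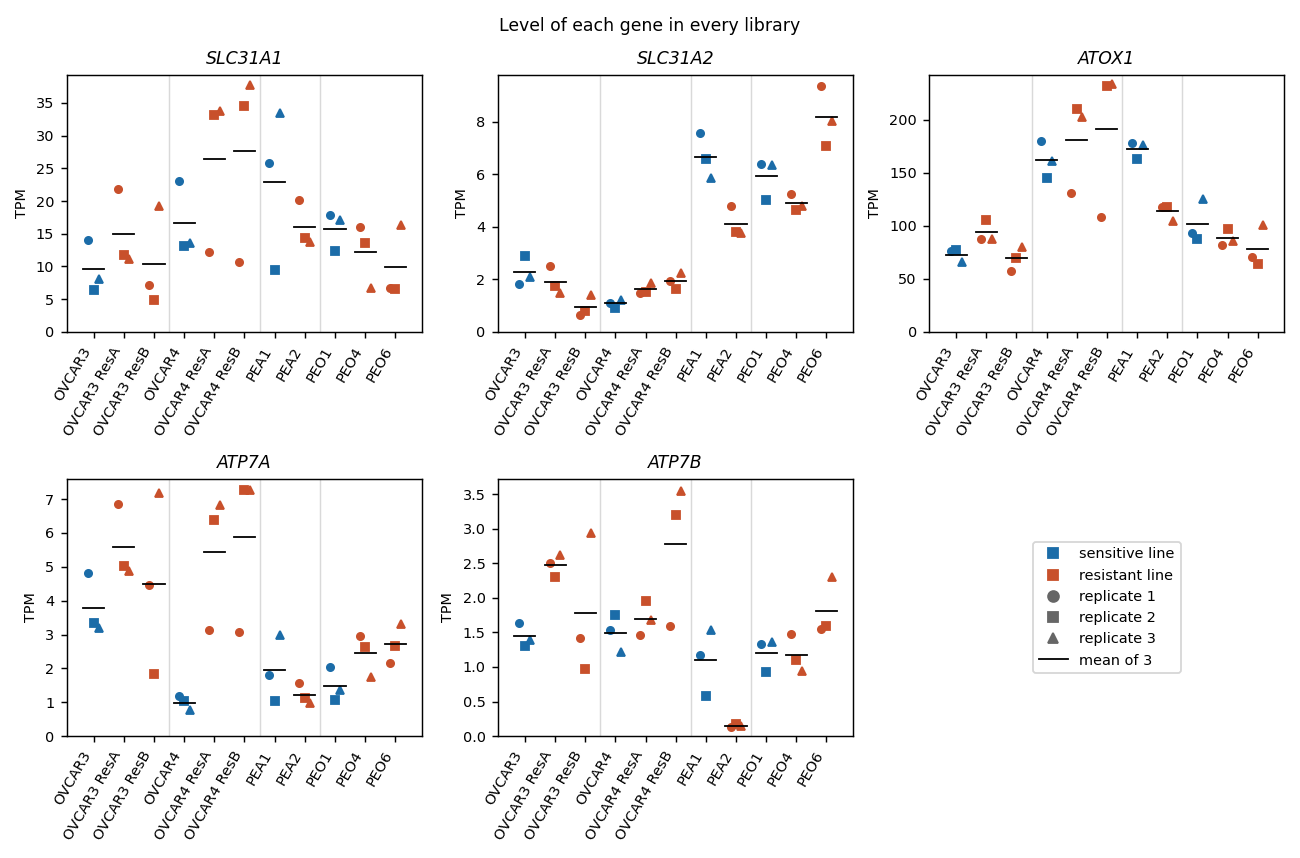
TPM of each gene (y axis) in every library of the 11 lines (x axis), sensitive lines in blue and resistant lines in orange, with marker shapes for replicates and bars for the mean of 3. ATP7A is near 1 TPM in OVCAR4 and between 3.08 and 7.27 TPM in its resistant lines, and ATP7B is at 0.132 to 0.181 TPM in PEA2.

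ATP7B, the Wilson pump, had the lowest median level of the 5 members (1.48 TPM) and the widest range of line means, 18.2-fold. From the highest, the order was OVCAR4 ResB (2.78 ± 1.04 TPM, SD, n = 3), OVCAR3 ResA, PEO6, OVCAR3 ResB, OVCAR4 ResA, OVCAR4, OVCAR3, PEO1, PEO4, PEA1 and PEA2 (0.153 ± 0.0255 TPM), and only the last step was without overlap. PEA2 had 0.132, 0.181 and 0.145 TPM (14, 26 and 17 counts), against 1.18, 0.579 and 1.53 TPM in PEA1 (138, 56 and 140 counts). All PEA2 libraries were below all others of the series. The decrease was -2.50 ± 0.52 on the log2 scale (DESeq2 adjusted p = 8.10e-06), with a 95% interval from -3.53 to -1.48. It was lost only without replicate 1 (-2.23, adjusted p = 0.0556) among 10 alternatives, since 2 filters on TPM removed the gene. PEA1 and PEA2 also differed in cell markers. CDH1 was at 1.26 TPM in PEA1 and 204 TPM in PEA2, KRT7 at 2.95 and 1186 TPM, and EPCAM at 14 and 575 TPM. KRT8 was at 128 and 832 TPM and MUC16 at 0.0696 and 5.06 TPM, while PAX8 (74.9 and 61.7 TPM) and WT1 (2.32 and 2.25 TPM) differed little. COL1A1, a fibroblast marker, was at 88.4 TPM in PEA1 and below 1 TPM in PEA2. The other listed fibroblast markers, DCN and LUM, were at most 0.0204 TPM in both lines. The part of the marker differences in the ATP7B value was not tested.

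The opposite call for ATP7B was in OVCAR3 ResA, with 2.51, 2.3 and 2.62 TPM against 1.63, 1.31 and 1.39 TPM in OVCAR3. The groups did not overlap, and the increase was 0.81 ± 0.23 (DESeq2 adjusted p = 0.00153). It was lost without replicate 1 (0.81, adjusted p = 0.119), without replicate 3 (0.80, adjusted p = 0.0733) and in the single fit of all libraries (0.79, adjusted p = 0.0746). PEO6 was also apart from PEO1, with 1.55, 1.59 and 2.3 TPM against 1.33, 0.922 and 1.36 TPM, at 0.41 ± 0.34 (adjusted p = 0.355). Estimates in the other 4 pairs ran from -0.15 ± 0.40 in OVCAR4 ResA to 0.47 ± 0.42 in OVCAR4 ResB.

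Ratios within a library avoid differences in depth between libraries. They do not remove the length slope, because the genes differ in length, and its part in the ratios was not tested. OVCAR4 had more ATP7B than ATP7A, with ATP7B to ATP7A ratios of TPM of 1.28 to 1.7, and its resistant lines had the reverse, 0.247 to 0.469 in ResA and 0.439 to 0.518 in ResB, apart from OVCAR4 in every library. PEA2 had the lowest ratios, 0.0833 to 0.162, against 0.512 to 0.651 in PEA1. In PEO4 the ratio was 0.416 to 0.544, below the 0.654 to 1.01 of PEO1, and PEO6 overlapped PEO1 at 0.596 to 0.72. The OVCAR3 family showed no separation, with 0.337 to 0.436 in OVCAR3, 0.368 to 0.536 in ResA and 0.32 to 0.531 in ResB.

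The ratio of the importer to the summed pumps, SLC31A1 over ATP7A plus ATP7B, was lower in the resistant lines of 2 families and higher in that of another. In OVCAR4 it was 4.75 to 8.44, against 2.67 to 3.99 in ResA and 2.29 to 3.49 in ResB. PEO1 had 5.29 to 6.3, against 2.52 to 3.64 in PEO4 and 1.52 to 2.93 in PEO6. PEA2 was above PEA1 (11 to 12.2 against 5.9 to 8.63). In the OVCAR3 family the mean ratio was 1.78 ± 0.401 in OVCAR3, 1.81 ± 0.462 in ResA and 1.63 ± 0.366 in ResB (SD, n = 3), with overlapping libraries. No test was run on either ratio.

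**Figure D4:**
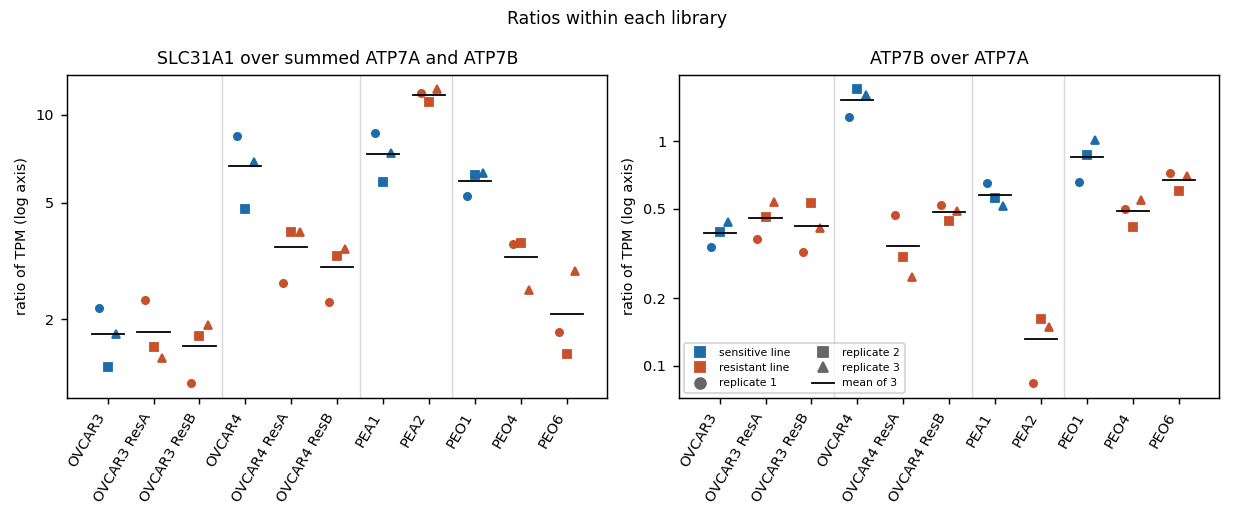
Ratios of TPM within each library (y axes, log scale) by line (x axis), sensitive lines in blue and resistant lines in orange, with bars for the mean of 3. OVCAR4 has ATP7B to ATP7A ratios of 1.28 to 1.7, above every other line, and PEA2 has the lowest at 0.0833 to 0.162.

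Resistant lines of the same parent did not differ in any member at the threshold, with 0 of 15 combinations called by DESeq2, where 13.5% of all genes were called between OVCAR3 ResB and ResA, 32.8% between OVCAR4 ResB and ResA and 18.2% between PEO6 and PEO4. The smallest p was that of ATP7B in OVCAR4 ResB, 1.6, 3.2 and 3.55 TPM against 1.46, 1.95 and 1.68 TPM in ResA, each same-numbered library higher at 0.64 ± 0.28 (unadjusted p = 0.0243, adjusted p = 0.0695). It was the only 1 of the 15 with an unadjusted p under 0.05, and edgeR also called 0 of 15. Of 12 alternatives 2 called it, namely a filter on low counts (DESeq2 adjusted p = 0.039) and leaving out 1 of the replicate numbers (0.00975). On leaving out the replicate numbers in turn, the highest adjusted p was 0.639. The other combination of low p was SLC31A2 in PEO6 against PEO4, where all libraries were apart at 0.71 ± 0.37 (adjusted p = 0.188), called without the replicate block (adjusted p = 0.042). Leaving out replicate 3 of both lines changed the comparison of OVCAR3 ResB with ResA for 2 of the 3 long genes. Without it, SLC31A1 was lower by -1.19 (adjusted p = 0.00129) and ATP7A by -1.08 (adjusted p = 0.00769), against -0.67 ± 0.41 and -0.50 ± 0.43 with it. ATP7B moved from -0.59 ± 0.45 to -1.05 and was not called either way (adjusted p = 0.0931 without it). SLC31A1 in PEO6 against PEO4 moved from -0.43 ± 0.40 to -1.09 (adjusted p = 0.000775) without replicate 3 of both lines. In that replicate PEO4 had its lowest level, 6.75 TPM, and PEO6 its highest, 16.4 TPM.

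With the line as the unit, counts summed over replicates and family as a covariate, no member was called between the 7 resistant and 4 sensitive lines. ATP7A had the largest estimate, 0.73 ± 0.38 with a 95% interval from -0.01 to 1.46 (unadjusted p = 0.0533, DESeq2 adjusted p = 0.847), and the other 4 ranged from -0.27 to -0.12. None of the 5 had an unadjusted p under 0.05, edgeR called 0 of all genes, and DESeq2 called 0.286% of all genes in this test. Without the PEO family the SLC31A1 estimate was 0.04, and without the PEA family that of ATP7B was 0.38.

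The 4 cisplatin-selected pairs and the 3 patient-derived pairs were compared in a single fit of all libraries, with libraries and not lines as the unit. The mean effect on ATP7B was 0.37 ± 0.21 in the selected pairs and -0.72 ± 0.24 in the patient-derived pairs, and the difference of 1.09 ± 0.32 was called (DESeq2 adjusted p = 0.00281). It was lost without replicate 3 (0.79, adjusted p = 0.124), and PEA2 had the only ATP7B estimate below -0.15. For ATP7A the means were 1.24 ± 0.26 and 0.33 ± 0.29, and the difference of 0.91 ± 0.39 did not pass (adjusted p = 0.0502), though it did without the replicate block (0.94, adjusted p = 0.0401) and with a filter on low counts (0.91, adjusted p = 0.0479). The separate ATP7A estimates were 2.02 and 2.06 in the OVCAR4 pairs, which share the OVCAR4 libraries, and 0.54 and 0.04 in the OVCAR3 pairs. Among the patient-derived pairs they were -0.28 in PEA2, 0.63 in PEO4 and 0.70 in PEO6. Differences for SLC31A1, SLC31A2 and ATOX1 were 0.62 ± 0.37, -0.23 ± 0.23 and 0.15 ± 0.13, and the last gene was lower in the patient-derived pairs by -0.35 ± 0.10 (adjusted p = 0.00115) and in the selected pairs by -0.20 ± 0.09 (adjusted p = 0.0736). In this contrast 38.7% of all genes were called. Way of selection and family cannot be told apart here, because every selected line comes from OVCAR3 or OVCAR4 and every patient-derived line from the PEA or PEO family.

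The genes on either side of each member were examined for shared change. Around ATP7A, 3 of 6 neighbours were called higher in OVCAR4 ResA and 3 of 6 in OVCAR4 ResB, and none was lower, with median log2 fold changes of 1.07 and 0.96, where 6.68% and 9.09% of all genes were called higher. MAGT1, the second gene before ATP7A on chromosome X, rose by 1.42 ± 0.36 (DESeq2 adjusted p = 0.00157) and 1.02 ± 0.35 (adjusted p = 0.0239), and CHMP1B2P by 3.50 ± 0.69 and 3.15 ± 0.69. The third called neighbour was PGK1 in ResA (1.49 ± 0.43, adjusted p = 0.0084) and TAF9B in ResB (0.90 ± 0.34, adjusted p = 0.0471). These 4 genes are named although their number was below the 4 of 6 set for naming neighbours, and were chosen after their values were seen. COX7B, which lies between MAGT1 and ATP7A, was not called in either line (0.07 ± 0.37 and -0.38 ± 0.38), nor was PGAM4, which lies within the ATP7A gene. These lines share the OVCAR4 libraries. ATP7A was also called higher in OVCAR3 ResA, where 2 neighbours were higher and 1 lower, and in PEO4, where 0 were higher and 1 lower. Where ATP7A was not called, 3 neighbours were higher and 1 lower in PEO6, and 2 were higher and 1 lower in PEA2. None was called in OVCAR3 ResB. Around ATP7B, 2 of 6 neighbours were lower in PEA2, where 4088 of 17204 genes were called lower, and 1 of 6 was higher in OVCAR3 ResA, where 22.0% of genes were. For SLC31A1, 1 of 6 was higher in OVCAR3 ResA and 1 of 6 was lower in PEO6, where 3406 of 16803 genes were called lower. The SLC31A2 region in PEA2 had 5 of 6 neighbours called lower, with a median of -1.19, while SLC31A2 itself was not called. The shares of all genes stand beside these counts as a description, and no test of them was run.

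The genes whose 11 line means most resembled each member were listed with Pearson's r, out of genes whose normalised counts averaged at least 100. SLC31A1 was closest to IDI1 and FAM118B (both r = 0.96) and NEXN (0.94). For SLC31A2 they were MRPL13 (0.96), ZNF334 (0.95) and ZNF818P (0.94), and for ATOX1 NUP62 (0.97), RPL23AP7 and KIAA1191 (both 0.96). ATP7B was closest to TRIM45, LRP3 and ZNF565, each at r = 0.95, with rank correlations of 0.664 to 0.718. ATP7A had the least similar partners, KLHL20 (0.88), TMEM63C (0.87) and SLC25A14 (0.85), the last also on chromosome X. ATP7A and ATP7B followed each other over the line means with r = 0.56.

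Other genes that handle copper were taken as a list of 38 in 7 roles. Over the 7 pairs, 256 combinations had an adjusted p, and 40 were called higher and 44 lower in the resistant line. The share called was 57.1% in OVCAR3 ResA, 17.1% in OVCAR3 ResB, 2.7% in OVCAR4 ResA, 22.2% in OVCAR4 ResB, 52.6% in PEA2, 35.1% in PEO4 and 42.1% in PEO6, and the medians of the listed genes ran from -0.37 to 0.17 beside medians of all tested genes of -0.02 to 0.02. In OVCAR4 ResA, where ATP7A rose 4.05-fold, 1 listed gene was called. The calls ranged from 51 to 96 under the alternatives.

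The counts by role below can be read beside the 7.67% to 47.0% of all genes called per pair. Mitochondrial delivery had 2 calls higher and 13 lower in the 49 combinations of its 7 genes. SLC25A3, which carries phosphate and copper into mitochondria, made up 6 of the 13 and was called lower in every pair but PEO4. The share of all genes called lower in as many pairs was not counted, and pairs of one family share the libraries of the sensitive line. SLC25A3 is named because it was called in at least 5 pairs. Its level was 268 ± 31 TPM in OVCAR3 ResA and 266 ± 102 TPM in OVCAR3 ResB against 457 ± 38.3 TPM in OVCAR3 (-0.91 ± 0.11 and -0.96 ± 0.32), and 350 ± 105 TPM in OVCAR4 ResB against 562 ± 86.2 TPM in OVCAR4 (-1.29 ± 0.29, DESeq2 adjusted p = 0.000155, n = 3). In OVCAR4 ResA it was 446 ± 62.6 TPM (-0.86 ± 0.28, adjusted p = 0.0271), in PEA2 381 ± 57.5 against 671 ± 66.7 TPM (-0.70 ± 0.21) and in PEO6 400 ± 83.8 against 678 ± 138 TPM (-0.78 ± 0.21). The estimate was below 0 in all 7 pairs under each of the 12 alternatives, which called it in 2 to 6 pairs, with 2 when replicate 2 was left out.

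Storage genes, the metallothioneins that bind copper and zinc, had 12 calls higher and 4 lower in 33 combinations with an adjusted p. In the same pairs, 4.10% to 23.3% of all genes were called higher. MT2A rose in OVCAR3 ResA (1.07 ± 0.21), OVCAR3 ResB (3.0 ± 0.51), PEA2 (0.81 ± 0.30) and PEO4 (0.56 ± 0.19), and fell in PEO6 (-1.92 ± 0.25). In OVCAR3 ResB its level was 321 ± 247 TPM against 34.4 ± 11.5 TPM, and in PEO6 440 ± 283 against 1497 ± 348 TPM (n = 3). Alternatives called it higher in 1 to 5 pairs, and without replicate 1 it was called higher in 2 and lower in 3. MT1M fell in PEA2 (25.1 ± 1.22 against 97.1 ± 46.8 TPM), in PEO4 (6.94 ± 1.1 against 75.4 ± 8.55 TPM) and in PEO6 (35.7 ± 24.4 TPM). Metallothionein genes are near-identical copies, and reads may be split between them.

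Reductases and other metal importers had 7 calls in each direction in 28 combinations. STEAP2 and STEAP4 encode metalloreductases that reduce copper and iron before uptake. STEAP2 fell in both OVCAR3 resistant lines, from 3.89 ± 1.33 TPM to 0.243 ± 0.0333 TPM in ResA and 1.42 ± 0.466 TPM in ResB, and rose in OVCAR4 ResB (1.51 ± 0.45), PEA2 (15.2 ± 0.881 against 1.67 ± 0.372 TPM) and PEO6 (0.96 ± 0.26). STEAP4 rose in PEA2, from 0.0106 ± 0.00954 to 9.48 ± 0.88 TPM, and in PEO6 (1.14 ± 0.27), and fell in OVCAR3 ResA (-1.61 ± 0.37), OVCAR4 ResB (-3.12 ± 0.76) and PEO4 (-2.71 ± 0.34). The fall in OVCAR4 ResB was between low levels, from 0.562 ± 0.055 to 0.0938 ± 0.0242 TPM.

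Copper enzymes that ATP7A and ATP7B load in the secretory route had 11 calls higher and 13 lower in 48 combinations. LOXL2, a lysyl oxidase that crosslinks collagen, rose in OVCAR3 ResA (1.46 ± 0.23), OVCAR3 ResB (3.39 ± 0.44) and OVCAR4 ResB (1.65 ± 0.46) and fell in PEA2 (-1.36 ± 0.26), PEO4 (-3.89 ± 0.19) and PEO6 (-5.14 ± 0.26). LOX fell in PEA2 from 71.4 ± 1.97 to 6.48 ± 0.783 TPM and in PEO6 from 3.81 ± 0.533 to 0.407 ± 0.168 TPM, and rose in OVCAR3 ResA and PEO4. LOXL4 fell in PEA2 from 50.1 ± 11.3 to 0.34 ± 0.0886 TPM, and also in OVCAR3 ResA (0.381 ± 0.0749 to 0.0426 ± 0.018 TPM, both low) and PEO6. CP, encoding ceruloplasmin, the copper-carrying ferroxidase loaded by ATP7B in liver, went from 111 ± 40.2 to 0.0719 ± 0.0711 TPM in OVCAR3 ResA, where ATP7B rose, and from 44.6 ± 13.2 to 3.89 ± 0.752 TPM in PEA2, where ATP7B fell (SD, n = 3). CP rose in OVCAR4 ResB (0.93 ± 0.29), PEO4 (2.64 ± 0.68) and PEO6. Its level was 0.116 ± 0.0767 TPM in PEO1, 0.645 ± 0.487 TPM in PEO4, still low, and 37.4 ± 18 TPM in PEO6.

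The remaining roles had fewer calls. Cytosolic delivery had 6 calls higher and 3 lower of 42, and CCS, the chaperone that loads SOD1, and COMMD1 were not called in any pair. Regulators had 0 calls higher and 1 lower of 28, with MTF1, XIAP and AP1S1 in none. Genes of copper-dependent cell death had 2 calls higher and 3 lower of 28, with LIAS in none.

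**Figure D5:**
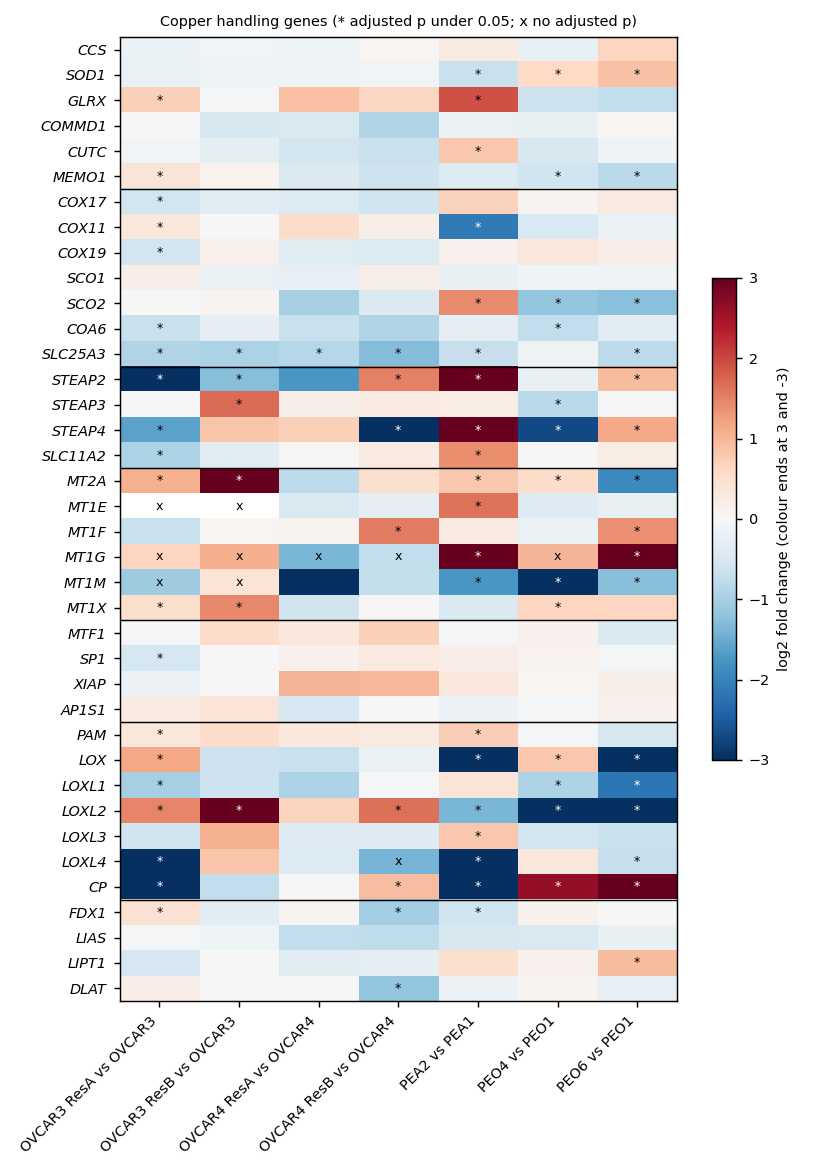
Log2 fold change of the 38 listed copper handling genes (y axis, lines between roles) in the 7 resistant-sensitive pairs (x axis). Colour runs from -3 to 3, values beyond those ends take the end colour, a star marks an adjusted p under 0.05 and a cross a gene without an adjusted p; SLC25A3 is starred and blue in 6 of 7 pairs.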

How the data were processed

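The study sequenced mRNA (KAPA mRNA HyperPrep libraries, NextSeq) from 33 libraries of 11 lines, aligned to GRCh38, and the same pool was sequenced over several runs. The authors deposited expected counts per gene from Salmon, of which 88.4% were whole numbers, and TPM, the same estimates scaled by the authors for gene length and library size. The submitters' processing notes also name DRAGEN. Strand settings are not given in the sources used here, and no replicates were pooled.

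Expected counts were rounded and tested in DESeq2 1.42.0 (R 4.3.3), as in the study's methods, for each pair of lines with replicate number as a block (the replicate block), no filter before fitting, and Benjamini-Hochberg adjustment over all genes at 0.05. Fold changes are unshrunken. A gene without an adjusted p was left undefined. The line-level test used counts summed per line with family as covariate, and the contrast of origins used all 33 libraries in a single fit. Levels were compared between genes as TPM. Same-numbered libraries were checked for shared deviation, which was found in 2 of 10 comparisons, and no libraries were duplicates (chi-square per degree of freedom 32.6 to 568). Alternatives were edgeR 4.0.16, TMM factors, a filter of 10 counts in 3 libraries, no replicate block, a single fit, limma 3.58.1 on log2(TPM + 1) or log2(TPM + 0.1) with TPM of at least 1 in 3 libraries, the former also without the filter and then with limma's mean trend, leaving out replicates or families, and a length trend added after the data had been seen. The scripts were tested on simulated data.

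The 5 genes and the copper and marker lists were chosen with earlier results of these data known. Beside the 5 genes, the rule named listed copper genes called in at least 5 pairs, the 2 with the smallest adjusted p per pair, neighbours where at least 4 of 6 were called in the direction of a called member, and the 3 genes most like each member over line means. Normalised counts are counts divided by DESeq2 size factors. Neighbours and promoters were taken from RefSeq GRCh38.p14. Between 18058985 and 43394009 counts per library stood behind the values.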

Additional observations from a re-analysis of the deposited data

Results flagged for a closer look

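The effect on ATP7B differed between the 4 cisplatin-selected and the 3 patient-derived pairs by 1.09 on the log2 scale in the contrast fitted over all libraries. Libraries and not lines were the unit of this contrast, and the call was lost without replicate 3. Among the patient-derived pairs the separate estimates were -2.50 in PEA2, -0.04 in PEO4 and 0.41 in PEO6. Origin cannot be told apart from family.

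For a pair of genes, the libraries of some resistant lines lay wholly above, and those of others wholly below, the libraries of their sensitive line, on normalised counts. ATP7B was higher in OVCAR3 ResA by 0.81 and in PEO6 by 0.41, and lower in PEA2 at -2.50. SLC31A2 was higher in PEO6 by 0.47 and lower in OVCAR3 ResB at -1.40, in PEA2 at -0.58 and in PEO4 at -0.24. PEO4 and PEO6 share the PEO1 libraries. The differences between these pairs of lines were not tested, other than PEO6 against PEO4.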

How the results depend on the processing

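Over the results on the 5 genes and the alternatives run on them, 647 values kept their direction and side of the threshold, 37 lost a call, 37 gained one, 40 turned in sign, and the number of calls moved by over 1.5 times under 4 settings. The cause of these changes was not tested. SLC31A2 had 12 to 316 counts per library and ATP7B in PEA2 had 14 to 26, and the part of this depth in their calls was not tested. On log2 TPM the median of all genes in the OVCAR4 pairs was itself higher, by 0.44 to 0.52 with the TPM filter and by 0.19 and 0.20 without it, and the ATOX1 and ATP7B values given below as turned in sign in limma in these pairs lay below that median. The 8 calls over the 35 combinations became 5 in limma with a pseudocount of 0.1 and 5 on leaving out replicate 1, 2 or 3. In the fit without the replicate block, 8 were called, 4 of them lower. Same-numbered libraries deviated together, with every r over 0.1, in OVCAR3 ResA against OVCAR3 (0.765, 0.351 and 0.555) and OVCAR4 ResB against OVCAR4 ResA (0.653, 0.503 and 0.536). None of the other 8 comparisons met this rule. In PEO4 against PEO1 each r was above 0 (0.472, 0.0395 and 0.239), and every remaining comparison had an r below 0. The rule does not settle whether same-numbered libraries of those lines belong together.

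Without the replicate block, the call was lost for SLC31A1 in OVCAR3 ResA against OVCAR3 (0.50), ATP7A in OVCAR3 ResA against OVCAR3 (0.57), ATP7A in PEO4 against PEO1 (0.66), SLC31A1 in PEO6 against PEO1 (-0.72). A call was gained for SLC31A2 in OVCAR3 ResB against OVCAR3 (-1.39), SLC31A2 in PEA2 against PEA1 (-0.60), ATOX1 in PEA2 against PEA1 (-0.50), ATP7A in PEO6 against PEO1 (0.70), SLC31A2 in PEO6 against PEO4 (0.72), ATP7A in the selected minus patient-derived contrast (0.94). In a single DESeq2 fit of all 33 libraries, the call was lost for SLC31A1 in OVCAR3 ResA against OVCAR3 (0.49), ATP7A in OVCAR3 ResA against OVCAR3 (0.54), ATP7B in OVCAR3 ResA against OVCAR3 (0.79), ATP7A in PEO4 against PEO1 (0.66), SLC31A1 in PEO6 against PEO1 (-0.74). A call was gained for SLC31A2 in OVCAR3 ResB against OVCAR3 (-1.38), ATOX1 in OVCAR4 ResA against OVCAR4 (-0.39), ATOX1 in OVCAR4 ResB against OVCAR4 (-0.43), SLC31A2 in PEA2 against PEA1 (-0.61), ATOX1 in PEA2 against PEA1 (-0.51), ATOX1 in PEO6 against PEO1 (-0.36), SLC31A2 in OVCAR3 ResB against OVCAR3 ResA (-0.96), ATOX1 in OVCAR3 ResB against OVCAR3 ResA (-0.37), SLC31A2 in PEO6 against PEO4 (0.77). In limma on log2(TPM + 1), the call was lost for ATP7A in OVCAR4 ResA against OVCAR4 (1.64), ATP7A in OVCAR4 ResB against OVCAR4 (1.72), ATP7A in PEO4 against PEO1 (0.48), SLC31A1 in PEO6 against PEO1 (-0.73). A call was gained for ATOX1 in OVCAR3 ResA against OVCAR3 (0.36), SLC31A2 in PEA2 against PEA1 (-0.58), ATOX1 in PEA2 against PEA1 (-0.60). The sign turned for ATOX1 in OVCAR4 ResA against OVCAR4 (0.14), ATP7B in OVCAR4 ResA against OVCAR4 (0.11), ATOX1 in OVCAR4 ResB against OVCAR4 (0.16), SLC31A1 in OVCAR4 ResB against OVCAR4 ResA (0.01), ATOX1 in OVCAR4 ResB against OVCAR4 ResA (0.03). With a pseudocount of 0.1 in limma, the call was lost for ATP7A in OVCAR4 ResA against OVCAR4 (2.28), ATP7A in OVCAR4 ResB against OVCAR4 (2.37), ATP7A in PEO4 against PEO1 (0.70), SLC31A1 in PEO6 against PEO1 (-0.79). A call was gained for ATOX1 in OVCAR3 ResA against OVCAR3 (0.36), SLC31A2 in PEA2 against PEA1 (-0.68). The sign turned for ATOX1 in OVCAR4 ResA against OVCAR4 (0.14), ATP7B in OVCAR4 ResA against OVCAR4 (0.18), ATOX1 in OVCAR4 ResB against OVCAR4 (0.16), SLC31A1 in OVCAR4 ResB against OVCAR4 ResA (0.01), ATOX1 in OVCAR4 ResB against OVCAR4 ResA (0.03). In limma without the TPM filter, the call was lost for ATP7A in OVCAR4 ResA against OVCAR4 (1.64), ATP7A in OVCAR4 ResB against OVCAR4 (1.72), ATP7A in PEO4 against PEO1 (0.48), SLC31A1 in PEO6 against PEO1 (-0.73). A call was gained for ATOX1 in OVCAR3 ResA against OVCAR3 (0.36), ATOX1 in PEA2 against PEA1 (-0.60). The sign turned for ATOX1 in OVCAR4 ResA against OVCAR4 (0.14), ATP7B in OVCAR4 ResA against OVCAR4 (0.11), ATOX1 in OVCAR4 ResB against OVCAR4 (0.16), SLC31A1 in OVCAR4 ResB against OVCAR4 ResA (0.01), ATOX1 in OVCAR4 ResB against OVCAR4 ResA (0.03). With a length trend removed from each library, an alternative added after the data had been seen, a call was gained for ATOX1 in PEA2 against PEA1 (-0.55), ATOX1 in PEO6 against PEO1 (-0.83), ATP7A in PEO6 against PEO1 (0.84). The sign turned for ATOX1 in OVCAR3 ResB against OVCAR3 (0.21), ATP7A in OVCAR3 ResB against OVCAR3 (-0.18), SLC31A1 in OVCAR4 ResA against OVCAR4 (-0.19), ATOX1 in OVCAR4 ResA against OVCAR4 (0.19), SLC31A1 in OVCAR4 ResB against OVCAR4 (-0.21), ATOX1 in OVCAR4 ResB against OVCAR4 (0.27), ATOX1 in OVCAR4 ResB against OVCAR4 ResA (0.05). In the edgeR quasi-likelihood test, the call was lost for ATP7A in OVCAR4 ResA against OVCAR4 (2.01). A call was gained for ATP7A in PEO6 against PEO1 (0.74). With a filter on low counts, a call was gained for ATP7B in OVCAR4 ResB against OVCAR4 ResA (0.65), ATP7A in the selected minus patient-derived contrast (0.91). Without the PEO family, the sign turned for SLC31A1 in the line-level test (0.04). Without the PEA family, the sign turned for ATP7B in the line-level test (0.38).

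The range on leaving out each replicate number in turn was SLC31A1 in OVCAR3 ResA against OVCAR3 0.43 to 0.60, ATP7A in OVCAR3 ResA against OVCAR3 0.45 to 0.61, ATP7B in OVCAR3 ResA against OVCAR3 0.80 to 0.84, SLC31A1 in OVCAR3 ResB against OVCAR3 -0.59 to 0.25, ATP7A in OVCAR3 ResB against OVCAR3 -0.51 to 0.43, ATP7B in OVCAR3 ResB against OVCAR3 -0.24 to 0.48, SLC31A1 in OVCAR4 ResA against OVCAR4 -0.21 to 0.56, SLC31A2 in OVCAR4 ResA against OVCAR4 -0.10 to 0.17. For others it was ATP7A in OVCAR4 ResA against OVCAR4 1.68 to 2.49, SLC31A1 in OVCAR4 ResB against OVCAR4 -0.30 to 0.59, ATP7A in OVCAR4 ResB against OVCAR4 1.73 to 2.55, SLC31A1 in PEA2 against PEA1 -0.57 to 0.12, ATP7A in PEA2 against PEA1 -0.65 to 0.19, ATP7B in PEA2 against PEA1 -3.06 to -2.21, ATP7A in PEO4 against PEO1 0.38 to 0.84, ATP7B in PEO4 against PEO1 -0.17 to 0.17. Further ranges were SLC31A1 in PEO6 against PEO1 -1.18 to -0.64, ATP7A in PEO6 against PEO1 0.43 to 1.05, SLC31A1 in OVCAR3 ResB against OVCAR3 ResA -1.19 to -0.25, ATP7A in OVCAR3 ResB against OVCAR3 ResA -1.08 to -0.19, SLC31A1 in OVCAR4 ResB against OVCAR4 ResA -0.09 to 0.03, ATOX1 in OVCAR4 ResB against OVCAR4 ResA -0.12 to 0.06, ATP7B in OVCAR4 ResB against OVCAR4 ResA 0.37 to 0.90, SLC31A1 in PEO6 against PEO4 -1.09 to -0.07. Further ranges were ATP7A in PEO6 against PEO4 -0.41 to 0.39, SLC31A1 in the line-level test -0.23 to 0.07, SLC31A1 in the selected minus patient-derived contrast 0.36 to 0.92, ATP7B in the selected minus patient-derived contrast 0.79 to 1.38, SLC31A1 in the mean of selected pairs -0.05 to 0.48, SLC31A2 in the mean of selected pairs -0.58 to -0.17, ATP7B in the mean of patient-derived pairs -0.93 to -0.61.

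Calls over all genes ranged, across the alternatives, for OVCAR3 ResA against OVCAR3 4920 to 9165 (main 8146), OVCAR3 ResB against OVCAR3 2 to 3057 (main 1255), OVCAR3 ResB against OVCAR3 ResA 6 to 5042 (main 2202), OVCAR4 ResA against OVCAR4 0 to 6221 (main 1784), OVCAR4 ResB against OVCAR4 0 to 7241 (main 2853), OVCAR4 ResB against OVCAR4 ResA 1847 to 5838 (main 5218), PEA2 against PEA1 4283 to 9174 (main 8088), PEO4 against PEO1 2921 to 6306 (main 5820), PEO6 against PEO1 3712 to 7285 (main 6962), PEO6 against PEO4 273 to 5223 (main 3043). In edgeR 0 genes were called in the line-level test, against 68 in DESeq2, and the other alternatives gave 42 to 199, the last without the PEO family. Across log2 TPM fits with the filter, the share of calls that were higher was 63.6% to 63.7% in OVCAR3 ResA (49.0% in the main test), 71.6% to 77.2% in OVCAR4 ResA (56.2%), 66.7% to 74.4% in OVCAR4 ResB (50.9%) and, between PEO6 and PEO4, 62.6% to 64.4% (54.2%).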
